A study of Mus musculus with 20 samples.

Results

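The genes described here are those whose symbols mark them as members of the cell division machinery: minichromosome maintenance (Mcm), origin recognition complex (Orc), cyclin-dependent kinase (Cdk) and structural maintenance of chromosomes (Smc) genes with a number, and genes starting with Ncap, Rad, Cdkn, Cdc (Cdc42 left out) or Ccn followed by a, b, c, d, e, g, h, i, k or t. A probe counted when it carried 1 such symbol and had a value on at least 2 arrays in every brain region. This gave 115 probes of 84 genes, out of 9604 probes of 7117 genes with a single symbol. The choice rests on names and on missing values, so it also takes in genes whose main work lies elsewhere. Another 12 genes with matching symbols lacked values: Ccnb2, Ccnt1, Cdc14a, Cdc40, Cdc6, Cdk12, Mcm2, Mcm4, Ncaph, Rad1, Rad54b and Smc5.

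The study compared mice carrying the NHE1 null mutation with wild-type mice, on 20 cDNA arrays with 2 channels. Amplified RNA of a null mutant's cortex, hippocampus, cerebellum or brain stem-diencephalon was set against wild-type RNA of the same region that the labels call pooled, on 5 arrays a region, of which 2 had the dyes swapped. Same-numbered arrays within a region were averaged into 1 replicate, giving 3 replicates a region plus a replicate 4 in cortex, a swapped array that bears no number. Sex, age, strain and allele of the mice are not given in the labels used here, nor whether a number stands for an animal, so a p-value here reflects only how these samples scatter, possibly for technical reasons. No control besides the wild-type pool exists on the arrays, and its variation is not in the ratios. That channel 1 stands over channel 2 in the deposited ratios is likely from the order of the labels but not stated; with the opposite order, each sign given here would turn.

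Before DNA can be copied, the origin recognition complex loads the Mcm helicase ring onto chromosomes. Cyclins switch on their kinases in turn, inhibitors of the Cdkn families hold these kinases back, and the anaphase-promoting complex with its activator Cdc20 marks cyclins and the guard of cohesin for destruction. Cohesin, a ring of Smc1a, Smc3, Rad21 and a Stag subunit, holds sister chromatids together and also folds chromosomes into loops in cells that no longer divide, and condensin compacts chromosomes for mitosis. Most neurons have left the cell cycle, so in brain many of these genes come from few dividing cells or serve other tasks, such as transcription (Cdk8, Cdk9, Ccnh, Ccnt2, Ccnc) or signalling in neurons (Cdk5, Cdk16, Cdk18).

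Several arrays bear on the values below. The swapped arrays cerebellum-DS1 and brain stem-diencephalon-DS2 correlated at 0.995 over 6748 probes, against 0.743 for the next of 190 pairs, so 1 hybridisation, called the repeated array here, probably stands under both regions. It enters cerebellum replicate 1 and brain stem-diencephalon replicate 2, and its true region is not known. The Y-linked gene Eif2s3y lay between -1.36 and -0.44 on 6 arrays of number 1, against 0.93 to 1.64 on 11 other arrays. On both copies of the repeated array it lay at 1.71. The arrays of number 1 thus stand apart, except cerebellum-DS1, a copy of the repeated array, which lay on the same side of 0 as the other numbers.

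RefSeq promoter windows on the mouse assembly GRCm38.p6 were at hand for 69 of the 84 members. The 250 bases before the start of 7 members are printed because these genes carried a call in at least 1 region or, for Rad23b, lay below 0 in every replicate, and had 1 window. Each is written 5′ to 3′ on the strand of its gene. Capitals mark the letters TTTGAA, the core of the cell cycle genes homology region, and CCAAT, the box bound by NF-Y, on either strand, with no overlap between marked letters.
Orc6 (chr8:85299382-85299631, plus strand): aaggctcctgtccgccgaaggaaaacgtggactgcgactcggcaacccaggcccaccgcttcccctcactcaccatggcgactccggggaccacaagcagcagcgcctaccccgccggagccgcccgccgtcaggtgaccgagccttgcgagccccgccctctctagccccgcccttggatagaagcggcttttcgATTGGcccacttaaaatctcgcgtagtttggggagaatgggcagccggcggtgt
Ncapg (chr5:45669675-45669924, plus strand): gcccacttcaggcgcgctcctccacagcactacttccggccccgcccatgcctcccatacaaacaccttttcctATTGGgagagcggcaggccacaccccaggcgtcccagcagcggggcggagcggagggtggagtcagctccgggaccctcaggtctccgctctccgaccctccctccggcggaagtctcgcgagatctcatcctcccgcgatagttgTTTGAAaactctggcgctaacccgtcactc
Cdc34 (chr10:79681945-79682194, plus strand): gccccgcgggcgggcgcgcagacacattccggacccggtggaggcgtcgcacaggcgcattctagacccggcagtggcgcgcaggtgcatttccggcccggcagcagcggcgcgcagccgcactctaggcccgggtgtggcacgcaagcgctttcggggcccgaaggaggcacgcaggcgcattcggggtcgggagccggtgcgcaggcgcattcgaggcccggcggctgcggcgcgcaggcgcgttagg
Cdc20 (chr4:118437344-118437593, minus strand): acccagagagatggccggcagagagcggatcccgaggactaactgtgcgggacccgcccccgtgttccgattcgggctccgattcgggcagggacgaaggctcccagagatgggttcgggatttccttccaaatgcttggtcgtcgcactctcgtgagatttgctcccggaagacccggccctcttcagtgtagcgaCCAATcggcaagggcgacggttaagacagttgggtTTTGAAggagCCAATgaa
Cdk8 (chr5:146231000-146231249, plus strand): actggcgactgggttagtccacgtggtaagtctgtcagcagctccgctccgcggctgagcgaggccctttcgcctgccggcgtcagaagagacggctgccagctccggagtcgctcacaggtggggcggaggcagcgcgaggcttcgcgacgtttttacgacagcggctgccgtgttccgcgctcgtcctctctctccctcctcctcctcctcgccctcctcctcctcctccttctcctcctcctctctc
Cdk18 (chr1:132139686-132139935, minus strand): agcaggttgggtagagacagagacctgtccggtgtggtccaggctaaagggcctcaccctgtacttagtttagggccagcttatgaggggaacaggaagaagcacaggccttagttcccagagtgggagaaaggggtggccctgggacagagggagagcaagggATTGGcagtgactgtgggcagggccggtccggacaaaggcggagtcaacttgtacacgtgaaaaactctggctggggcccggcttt
Rad23b (chr4:55349792-55350041, plus strand): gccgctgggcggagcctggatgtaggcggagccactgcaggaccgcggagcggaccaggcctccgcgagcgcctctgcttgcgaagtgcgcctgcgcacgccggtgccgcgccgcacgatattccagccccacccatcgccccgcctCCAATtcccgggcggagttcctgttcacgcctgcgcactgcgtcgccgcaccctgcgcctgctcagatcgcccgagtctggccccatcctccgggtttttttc
Ncapg and Cdc20, both used in mitosis, held TTTGAA at 30 and 18 bases before the start and CCAAT as well, Cdc20 at 53 and at 8 bases before it. Orc6, Cdk18 and Rad23b held CCAAT without TTTGAA, and Cdk8 and Cdc34 held neither. TTTGAA stood in 16% of the members' 81 windows and in 16% of all 32851 windows of the same length, and CCAAT in 53.1% and 33.8%. The E2F letters TTTCCCGC, searched on both strands, stood in 4.94% of the members' windows (Cdca7, Cdk2, Mcm7 and Ncapg2) and in 0.895% of all windows. TTTGGCGC stood in 4.94% (Cdc25a, Mcm5, Mcm6 and Ncapd2) and in 0.417% of all windows. These are matches of letters and not binding sites.

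Across the 4 regions together, 23 of the 66 members with enough values for a test changed at an adjusted p under 0.05 (limma, Benjamini-Hochberg over 8319 features), 14 higher and 9 lower in the null mutants. That is 34.8% of them, against 26.1% of all features called in either direction, 13.2% higher and 12.9% lower. The highest was Rad21, the cohesin subunit cut at anaphase, at 0.61 ± 0.11 on the log2 scale (SE, n = 13), a ratio of 1.53. The lowest was Cdk18, a PCTAIRE kinase, a family known from cells that no longer divide, at -0.56 ± 0.09 (n = 13), 1.47-fold lower. The median member lay at 0.04, beside 0.01 over all features. Of the tested members, 39 had the same sign in all 4 regions, beside 50.6% of all features, and 5 had 1 sign in every replicate, beside 4.9%. The other 18 members had too few arrays for the fit, which asks for 3 in every region and both orientations, and are given by their replicate values. The test of the mean took the 13 replicates as independent, although those of the same number were more alike across regions. With the number in the labels as a random block, 18 of the 23 calls were kept, beside 17% of all features called.

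**Figure D1:**
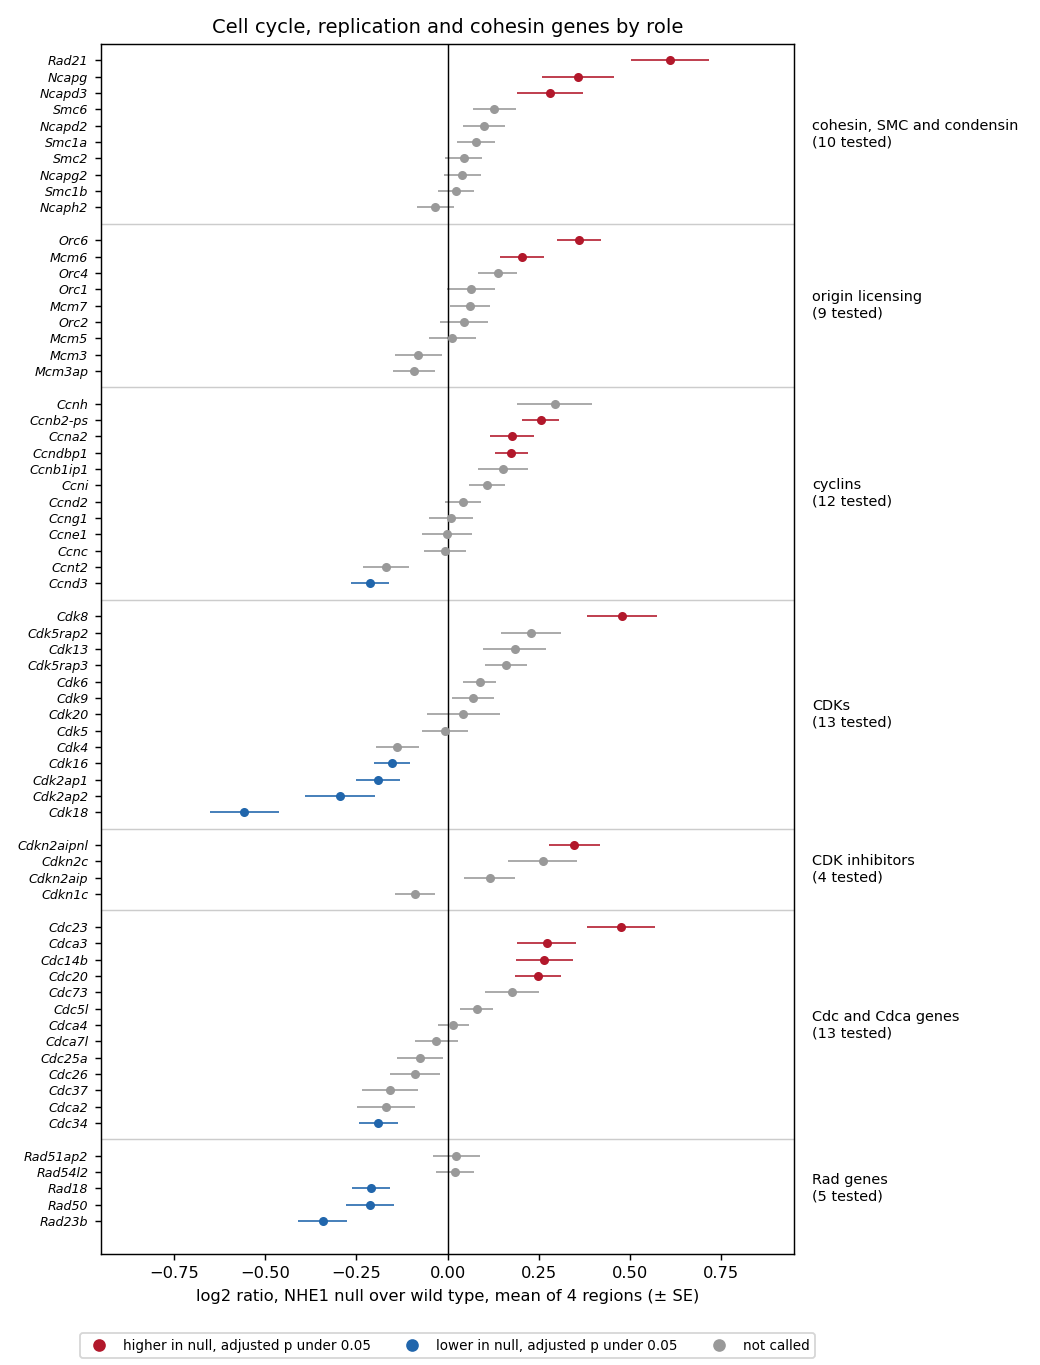
Mean log2 ratio of the 4 regions, NHE1 null over wild type, for the 66 tested members (points, with 1 SE on each side), grouped by role. Red points were higher and blue points lower in the null mutants at an adjusted p under 0.05; Rad21 stands highest at 0.61 and Cdk18 lowest at -0.56, and the 3 called Rad genes other than Rad21 lie below 0.

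Cohesin, the other Smc genes and condensin had 12 members, of which 10 were tested and 3 rose in the mean of regions, none fell, beside 26.1% of all features called in either direction. Of the 10, 9 lay above 0, beside 52.5% of all features. Rad21 measured 1.08, 1.02 and 0.86 in the 3 cerebellum replicates. In cortex it measured -0.31, 0.61, 0.83 and 0.72, and in hippocampus -0.07, 0.68 and 0.68. In brain stem-diencephalon it measured -0.06, 1.08 and 0.23. Replicates 2 and 3 (and 4 in cortex) were above 0 in every region, and all replicates of number 1 except that of cerebellum were below 0. The cerebellum 1 value and the brain stem-diencephalon 2 value both come from the repeated array alone, since Rad21 had no value on the other array of either. Within number 1, the arrays with the null RNA in channel 1 gave -0.31, -0.55 and -0.42, and the swapped arrays of hippocampus and brain stem-diencephalon gave 0.42 and 0.30. The mean of regions had an adjusted p of 0.00184. Without the repeated array it was 0.50 with an adjusted p of 0.0268, and without all arrays of number 1 it was 0.80 with an adjusted p of 3.35e-05.

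Of the Smc subunits of the ring, Smc1a was not called and Smc3 was not tested, while Stag1 was called. Smc1a, whose product pairs with that of Smc3 in the ring, lay at 0.08 ± 0.05 in the mean (n = 13). The replicates of Smc3 ran from -0.09 over a median of 0.06 to 0.38, with 10 of 13 above 0. Smc1b, the form of meiotic cells, lay at 0.02, and Smc6, of a repair complex related to cohesin, at 0.13 (adjusted p 0.119). Of the cohesin loading and release genes on a list of 15, 7 were tested. Stag1, the subunit that binds Rad21, rose by 0.25 ± 0.05 (adjusted p 0.00441), and in cortex by 0.39 ± 0.09 (adjusted p 0.031). Rec8, the meiotic counterpart of Rad21, rose by 0.19 ± 0.05 (adjusted p 0.0143). Mau2, which loads cohesin together with Nipbl, fell by 0.43 ± 0.10 (adjusted p 0.00987). Thus 2 of the 7 rose and 1 fell, with a median of 0.05, beside 13.2% of all features higher and 12.9% lower.

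Among condensin genes, Ncapg, the G subunit of condensin I, measured 0.68, 0.62 and 0.98 in the 3 cortex replicates with a value. In hippocampus it measured -0.30, 0.68 and -0.13, in cerebellum -0.08, 0.37 and 0.10, and in brain stem-diencephalon 0.14, 0.85 and 0.17. Outside cortex only hippocampus 2 and brain stem-diencephalon 2 reached the range of the cortex values. Its cortex ratio was 0.76 ± 0.18 (n = 3, adjusted p 0.0393), and its mean was 0.36 ± 0.10 (adjusted p 0.0193). Ncapd3, of condensin II, rose by 0.28 ± 0.09 in the mean (adjusted p 0.0354), with replicates between -0.42 and 0.995, both extremes in cortex. Its mean was 0.15 without cortex replicate 4 (adjusted p 0.369), 0.43 without hippocampus replicate 1, and 0.13 without the orientation term, the first and last of these without a call. The other subunits Ncapd2, Ncapg2 and Ncaph2 and the core subunit Smc2 lay between -0.03 and 0.10 and were not called. The 2 probes of Smc2 had opposite medians over arrays, 0.10 and -0.18, and those of Ncapd2 lay at -0.02 and 0.22. Smc4, with 2 probes and too few arrays for the fit, ranged from -0.32 to 0.30 with a median of 0.09.

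Origin licensing genes numbered 11, of which 9 were tested and 2 rose in the mean, 22.2% beside 26.1% of all features called. Orc6, the smallest subunit of the origin recognition complex, measured 0.49 and 0.73 in the 2 cortex replicates with a value. It measured 0.07, 0.29 and 0.28 in hippocampus, 0.28 and 0.62 in cerebellum, and -0.08, 0.53 and 0.21 in brain stem-diencephalon. Only brain stem-diencephalon 1 was below 0. Its mean was 0.36 ± 0.06 (n = 10, adjusted p 0.00253), and its cortex ratio was 0.69 ± 0.14 (n = 2, adjusted p 0.031). Mcm6, a subunit of the helicase ring, was below 0 in cortex replicates 2 and 3 at -0.17 and -0.14 and above 0 at 0.16 in cortex 1. In the other regions its 7 values ran from 0.17 to 0.46, and all were above 0. The mean of Mcm6 was 0.20 ± 0.06 (n = 10, adjusted p 0.0282). Orc4 was above 0 in 13 of 13 replicates, from 0.02 to 0.35, yet its mean of 0.14 ± 0.05 did not pass (adjusted p 0.0728). These values average 2 probes with medians of 0.13 and 0.15 that had opposite signs on several arrays. Examples are 0.28 and -0.25 on cortex-1, and -0.38 and 0.61 on cortex-3. Another Orc4 probe outside the fit had a median of 0.15 over 13 arrays, with -1.75 on cortex-1 and -0.79 on cerebellum-1. The other ring subunits Mcm3, Mcm5 and Mcm7 lay at -0.08, 0.01 and 0.06, and Orc1 and Orc2 at 0.06 and 0.05, none called. Mcm3ap, named for its binding to Mcm3, lay at -0.09. Mcm9 and Mcm10 were not tested and had medians of -0.06 and -0.03.

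The cyclin group held 13 members, 12 tested, with 3 higher and 1 lower in the mean, 33.3% beside 26.1% of all features called. Cyclin D3 (Ccnd3), which starts the cycle with Cdk4 and Cdk6, was below 0 in 12 of 13 replicates, from -0.43 to 0.11, and its mean was -0.21 ± 0.05 (adjusted p 0.00999). Only brain stem-diencephalon 1 was above 0. These values average probes with medians of -0.23 and -0.31 that had opposite signs on some arrays, such as 0.53 and -0.43 on brain stem-diencephalon-1. Cyclin D1 (Ccnd1) was not tested. All 12 of its replicates were below 0, from -0.70 over a median of -0.33 to -0.03; it was singled out after its values were seen. Cyclin D2 (Ccnd2) lay at 0.04 ± 0.05 in the mean, and its probes had medians between -0.10 and 0.11.

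The probe annotated Ccnb2-ps, a pseudogene copy of cyclin B2, was above 0 in 13 of 13 replicates, between 0.09 and 0.47, with a mean of 0.26 ± 0.05 (adjusted p 0.00365). A cDNA probe cannot tell such a copy from the cyclin B2 transcript itself, so the identity of this signal is uncertain. The repeated array gave Ccnb2-ps 0.80 under both regions. The other array gave 0.14 in cerebellum 1 and -0.02 in brain stem-diencephalon 2. Without the repeated array the mean of Ccnb2-ps was 0.19 (adjusted p 0.0275). Cyclin A2 (Ccna2), of S phase and early mitosis, rose by 0.18 ± 0.06 (adjusted p 0.045), with 12 of 13 replicates above 0. Its fitted probes had medians of 0.23 and 0.21 over arrays, and another probe outside the fit had 0.09. The fitted probes differed in sign on several arrays, such as 0.47 and -0.10 on cerebellum-DS2. Ccndbp1, a helix-loop-helix partner of D cyclins, rose by 0.17 ± 0.04 (adjusted p 0.0124), with 12 of 13 above 0. The transcriptional cyclins were not called: Ccnh lay at 0.29 ± 0.10 (adjusted p 0.0517) and Ccnt2 at -0.17 ± 0.06 (adjusted p 0.0672). The other cyclin names, Ccnb1ip1, Ccni, Ccng1 and Ccne1, lay at 0.15, 0.11, 0.01 and -0.0023 in the mean and did not pass.

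Among cyclin-dependent kinases and their binding proteins, 13 of 17 members were tested, 1 rose and 4 fell. These calls are 38.5% of the tested, beside 26.1% of all features called in the mean. Cdk18 was below 0 in 13 of 13 replicates. It measured -0.36, -0.72 and -1.04 in hippocampus and -0.35, -0.83 and -0.96 in cerebellum. In cortex it measured -0.07, -0.28, -0.48 and -0.66, and in brain stem-diencephalon -0.20, -0.26 and -0.55. Within each region the replicate of number 1 lay closest to 0. The Cdk18 mean had an adjusted p of 0.00146. Cdk16, of the same family, fell by 0.15 ± 0.05 (adjusted p 0.0378), with 10 of 13 replicates below 0, and its 2 probes had medians of -0.12 and -0.21.

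Cdk8, the kinase of the Mediator complex, measured 0.81, 0.98 and 0.58 in cerebellum. It measured -0.40, 0.16, 0.48 and 0.36 in cortex, -0.02, 0.51 and 0.41 in hippocampus, and -0.06, 1.17 and -0.05 in brain stem-diencephalon. The value of 1.17 is that of the repeated array, and both of the other brain stem-diencephalon replicates lay just below 0. The cerebellum 1 value of 0.81 averages 0.45 on cerebellum-1 with 1.17 on the repeated array. The mean of Cdk8 was 0.48 ± 0.10 (adjusted p 0.00368), and 0.33 with an adjusted p of 0.0378 without the repeated array. Cyclin C (Ccnc), the partner of Cdk8 in Mediator, lay at -0.01 in the mean, with 6 of 12 replicates above 0. Cdk2ap1 and Cdk2ap2, which bind Cdk2, fell by 0.19 ± 0.06 (adjusted p 0.0353) and 0.29 ± 0.10 (adjusted p 0.0395), and without cortex replicate 4 the mean of Cdk2ap2 was -0.18 (adjusted p 0.351).

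The kinases that drive the cycle were tested in part. Cdk4 lay at -0.14 ± 0.06 (adjusted p 0.107), with 11 of 12 replicates below 0, and Cdk6 at 0.09 ± 0.05, both without a call. Cdk1 and Cdk2 were not tested: Cdk1, which carries cells into mitosis, ranged from -0.80 to 0.32 with 3 of 11 replicates above 0, and Cdk2 from -0.23 to 0.27 with 9 of 12 above 0. Cdk5, the kinase of neurons, was near 0 at -0.01. Cdk5rap2 and Cdk5rap3 lay at 0.23 and 0.16 (adjusted p 0.0527 and 0.0506), and Cdk9, Cdk13 and Cdk20 between 0.04 and 0.18, none called. Cdk19, the close relative of Cdk8, was not tested and had 4 of 12 replicates above 0. Cdk7 was not tested. Its replicates of number 1 measured -2.95 in cortex, -0.78 in both hippocampus and cerebellum, and -0.09 in brain stem-diencephalon. The replicates of other numbers ran from 0.05 to 0.55, and the share of all features with such a split was not counted.

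The 6 members named Cdkn included 4 with a test, of which 1 (25%, beside 26.1% of all features called in the mean) rose. This was Cdkn2aipnl, whose product is a relative of a partner of the tumour suppressor p19Arf and no kinase inhibitor itself. It was above 0 in 12 of 12 replicates, from 0.03 to 0.60, with a mean of 0.35 ± 0.07 (adjusted p 0.00441). Cdkn2c, the inhibitor p18 of Cdk4 and Cdk6, had 4 replicates of number 1 between -0.26 and -0.02 and 9 others between 0.09 and 0.84. How often the replicates of number 1 lie apart in this way over all features was not counted. Its mean of 0.26 ± 0.09 did not pass (adjusted p 0.0551), and without all arrays of number 1 it was 0.42 (adjusted p 0.00174). Cdkn2aip lay at 0.12 ± 0.07 (adjusted p 0.241) and Cdkn1c, the inhibitor p57, at -0.09 ± 0.05. Cdkn1b, the inhibitor p27, was not tested and had 2 of 10 replicates above 0, with a median of -0.06.

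Of 19 Cdc and Cdca genes, 13 were tested, 4 rose and 1 fell. These calls are 38.5% of the tested, beside 26.1% of all features called in the mean. Cdc23, a subunit of the anaphase-promoting complex, was above 0 in 11 of 12 replicates, with -0.20 in cortex 1 and up to 0.84 in cortex 4. Its mean was 0.48 ± 0.09 (adjusted p 0.00354). Cdc20, which activates that complex, measured 0.39, 0.46 and 0.40 in cerebellum, 0.23, 0.29 and 0.10 in hippocampus, and 0.31, 0.38 and 0.19 in brain stem-diencephalon. In cortex it measured -0.43, 0.22, 0.03 and 0.03, so cortex 1 was the only replicate below 0. The cerebellum 1 value averages 0.11 on its own array with 0.67 on the repeated array, and brain stem-diencephalon 2 averages 0.09 with 0.68. The mean of Cdc20 was 0.25 ± 0.06 (adjusted p 0.0125), and 0.23 without the repeated array (adjusted p 0.0557). Of the complex's other subunits with a Cdc name, Cdc26 lay at -0.09 in the mean and Cdc27, not tested, had a median of -0.05.

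Cdc14b, a phosphatase whose yeast counterpart drives exit from mitosis, rose by 0.27 ± 0.08 (adjusted p 0.0256) over 2 probes, and another probe outside the fit had a median of -0.18 over 15 arrays. Without cortex replicate 4, a single array, the mean of Cdc14b was 0.086 (adjusted p 0.614), and the call was also lost with a minimum of 2 arrays a region. Cdca3, a trigger of mitotic entry, rose by 0.27 ± 0.08 (adjusted p 0.0261). Cdc34, a ubiquitin-conjugating enzyme that works with the SCF ligases on inhibitors such as p27, measured -0.03, -0.43, -0.56 and -0.48 in cortex. In the other regions it ran from -0.24 to 0.07. Its cortex ratio was -0.39 ± 0.09 (adjusted p 0.031), and its mean was -0.19 ± 0.05 (adjusted p 0.0183). Genes of this group with other tasks, Cdc37 (a chaperone of kinases), Cdc5l (splicing) and Cdc73 (transcription elongation), lay at -0.16, 0.08 and 0.18 without a call. Cdc25a, the phosphatase that switches on Cdk2 and Cdk1, lay at -0.08, and Cdca2, Cdca4 and Cdca7l lay between -0.17 and 0.02. The untested Cdca5, Cdca7, Cdca8, Cdc25c and Cdcp1 had medians between -0.21 and 0.03.

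Rad genes other than Rad21 numbered 6, with 5 tested, none higher and 3 lower. These calls are 60% of the tested, beside 26.1% of all features called in the mean, 13.2% higher and 12.9% lower. The calls of Rad18 and Rad50 were lost without the orientation term, as given below. Rad23b, which carries damaged DNA to excision repair and ubiquitylated proteins to the proteasome, was below 0 in 13 of 13 replicates. It measured -0.17, -0.43, -0.33 and -0.33 in cortex and -0.09, -0.68 and -0.51 in hippocampus. In cerebellum it measured -0.28, -0.51 and -0.58, and in brain stem-diencephalon -0.04, -0.51 and -0.29. The replicate of number 1 was nearest to 0 in every region. The mean of Rad23b was -0.34 ± 0.07 (adjusted p 0.00326).

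Rad18, a ubiquitin ligase for stalled replication forks, measured 0.14, -0.45, -0.16 and -0.61 in cortex. Elsewhere it ran from -0.42 to 0.10. Its cortex ratio was -0.33 ± 0.09 (adjusted p 0.0469), and its mean was -0.21 ± 0.05 (adjusted p 0.0108). All 8 swapped arrays lay between -0.69 and -0.19, and the 12 arrays with the null RNA in channel 1 between -0.23 and 0.58. Both calls of Rad18 were lost without the orientation term, where the mean was -0.14 (adjusted p 0.0884). Rad50, of the complex that finds broken DNA ends, fell by 0.21 ± 0.07 (adjusted p 0.0293), but a second probe outside the fit (10 arrays) had a median ratio of 0.28, and the tested one had -0.08. The mean of Rad50 was -0.13, without a call, both with no orientation term and with a minimum of 2 arrays a region. Rad51ap2 and Rad54l2 lay at 0.02 each. Rad52, not tested, had 2 of 11 replicates above 0 and a median of -0.23.

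**Figure D2:**
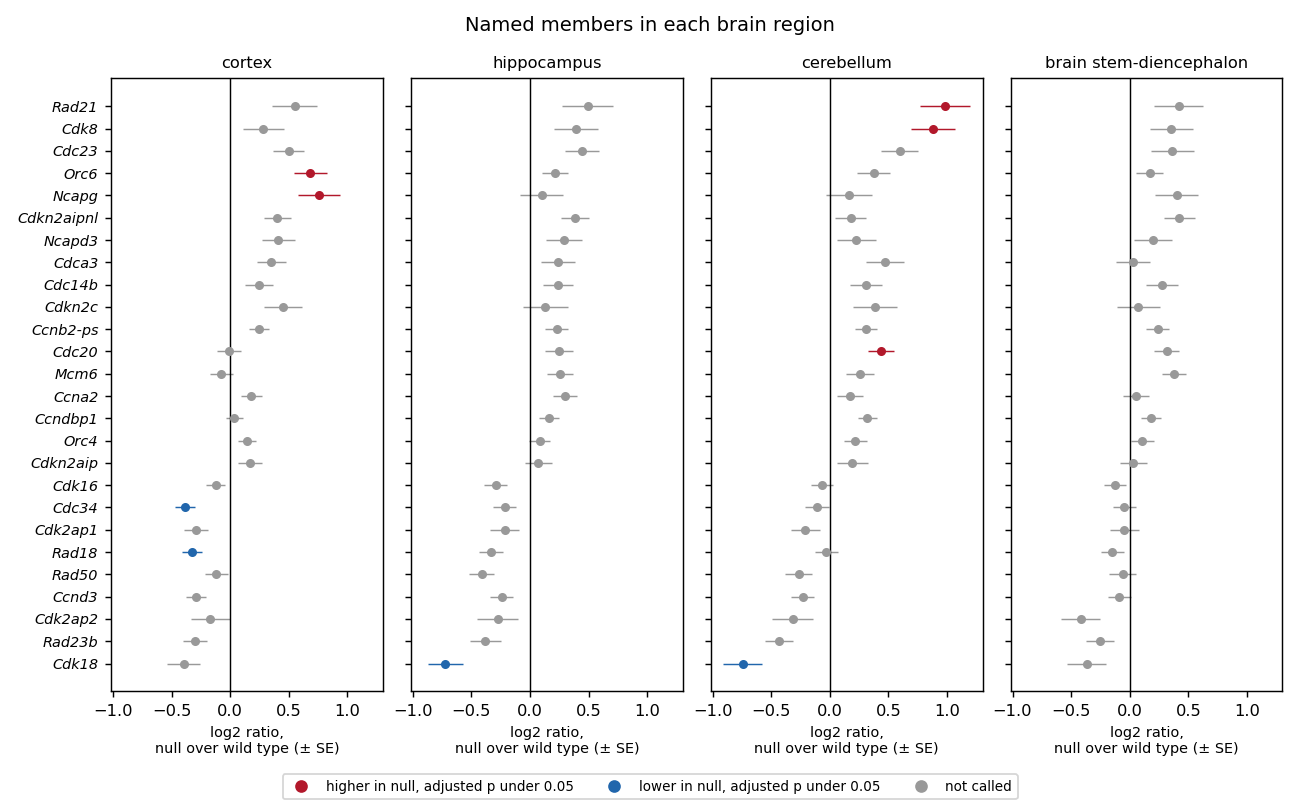
Log2 ratio of NHE1 null over wild type in each region for the 26 named members (points, with 1 SE on each side), in the order of their means. Coloured points passed an adjusted p of 0.05 in that region, red higher and blue lower in the null mutants: 4 in cortex, 1 in hippocampus, 4 in cerebellum and none in brain stem-diencephalon.

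Taken region by region, few members passed. In cortex 4 of 66 were called, 6.06%, beside 4.12% of all features: Orc6 and Ncapg were higher (background 1.68%) and Cdc34 and Rad18 lower (background 2.44%) in the null mutants. Cerebellum also had 4, 6.06% beside 3.07% of all features, 1.49% higher and 1.57% lower. There Rad21 (0.99 ± 0.21, adjusted p 0.031), Cdk8 (0.88 ± 0.19, adjusted p 0.031) and Cdc20 (0.44 ± 0.11, adjusted p 0.0458) were higher and Cdk18 (-0.75 ± 0.16, adjusted p 0.0334) was lower, each with n = 3. Hippocampus had 1, Cdk18 (-0.72 ± 0.15, n = 3, adjusted p 0.0477), which is 1.52% beside 0.661% of all features and 0.505% of features lower. Brain stem-diencephalon had 0 calls by limma, beside 0.361% of all features, with 8 members at an unadjusted p under 0.05 beside 13.5% of all features; the highest of these was Cdkn2aipnl at 0.42 ± 0.13 and the lowest Cdk2ap2 at -0.42 ± 0.16.

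The regional calls were lost under many of the alternatives. Each call also depends on the variance and orientation term shared by all regions, and on the adjustment over all features. It can therefore be lost although the arrays of its own region stay in place. Without the repeated array, 0 members were called in cerebellum, where Rad21 then lay at 0.96 (adjusted p 0.132), Cdk8 at 0.75 (adjusted p 0.075), Cdc20 at 0.38 (adjusted p 0.176) and Cdk18 at -0.75 (adjusted p 0.0659). Cdk18 had no value on the repeated array, and its cerebellum ratio was unchanged. In cortex, which does not hold the repeated array, Rad18 then had an adjusted p of 0.0566, and 3 calls remained. Leaving out cortex replicate 2, 3 or 4, or cerebellum replicate 2, ended all 4 cortex calls, and leaving out cerebellum replicate 2 or 3 ended all 4 cerebellum calls. Cerebellum replicate 1 and brain stem-diencephalon replicate 3 each left 1 of the cerebellum calls, Cdk18, and cortex replicate 4 left Rad21 and Cdk8. The hippocampus call of Cdk18 was lost without any of 10 single replicates, most of them from other regions, with an adjusted p of at most 0.373.

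**Figure D3:**
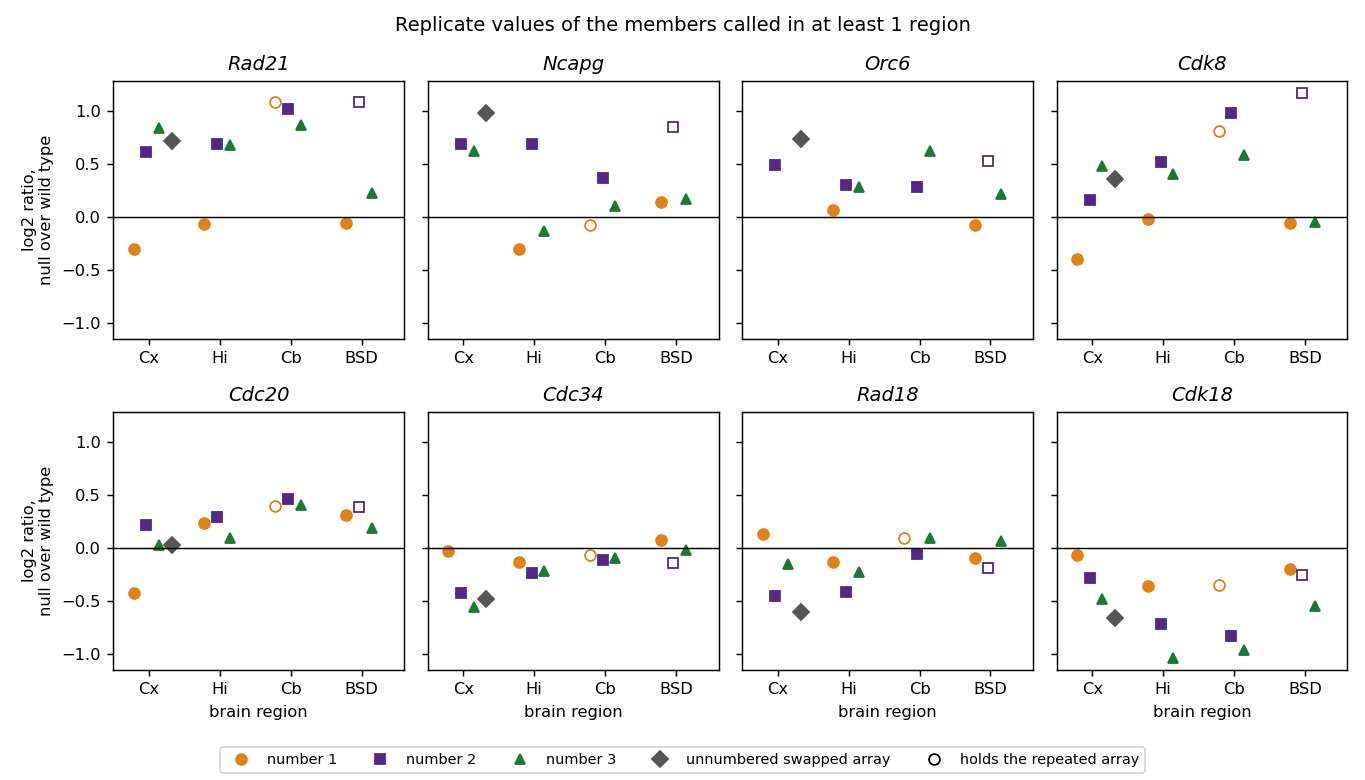
Log2 ratio of NHE1 null over wild type in each replicate for the 8 members called in at least 1 region. Cx is cortex, Hi hippocampus, Cb cerebellum and BSD brain stem-diencephalon; colours and shapes give the number in the labels, and open symbols are the 2 replicates to which the repeated array belongs. Replicates of number 1 lie nearest to 0 or across it in most panels, and Cdk18 is below 0 throughout.

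Whether the response differed between regions was tested directly. The F test of equal ratios called 0 of 66 members and 0 of 8319 features by limma, the lowest adjusted p of a member being 0.999. The count of members stayed at 0 under each of the 24 alternatives, under which up to 0.193% of all features were called. At an unadjusted p under 0.05 it took 4 members, Cdc25a, Cdk9, Mcm6 and Cdc20, beside 4.22% of all features. The 6 pairwise differences called 0 members, beside 0.0601% of all features called in any of them. Cdk9, a kinase of transcription elongation, had a ratio of -0.13 in cortex and 0.37 in cerebellum, a difference of -0.50 (adjusted p 0.414). Cdc20 had -0.01 and 0.44 in the same regions, a difference of -0.45 (adjusted p 0.495). A call in 1 region and none in another therefore does not show that a member differed between them.

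In the mean of regions, 6 calls held under each of the 24 alternatives that tested them: Rad21, Orc6, Cdk8 and Ccnb2-ps higher, Rad23b and Ccnd3 lower. Another 6, Cdc23, Cdk18, Cdkn2aipnl, Ccndbp1, Cdc20 and Rad18, lost the call only without cortex replicate 4 among the 13 settings that leave out 1 replicate, with adjusted p between 0.0626 and 0.106. The remaining 11 were lost without 2 to 9 of the single replicates; Ccna2, Cdk16, Cdk2ap1, Cdk2ap2 and Ncapd3 were lost without 9. Cortex 4, the unnumbered array, left 9 members called when removed, 7 of them among the 23, beside 11.3% of all features. Removal of cerebellum 2 left 13 and of brain stem-diencephalon 2 left 15. Without the repeated array, 18 of the 23 calls were kept, beside 16.9% of all features, and Ccna2, Cdc20, Cdc34, Cdca3 and Cdk2ap2 were lost. Ccna2 and Cdk2ap2 had no value on that array, and their means stayed at 0.18 and -0.29 (adjusted p 0.0567 and 0.0539). Their losses came through the variance moderation and the adjustment over all features.

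The replicates of number 1 lay nearer to 0 for many of these calls. For 20 of the 23 called members the median of the other replicates lay farther from 0 than that of number 1, and the same held for 79.5% of all 2172 called features. Without all arrays of number 1, a setting added after Eif2s3y had been seen, 24 members were called in the mean, 21 of them among the 23, beside 33.8% of all features. In the same setting 18 were called in cortex beside 26.2%, 8 in hippocampus beside 5.14%, 9 in cerebellum beside 6.7% and 1 in brain stem-diencephalon beside 2.71%. Ccna2 (0.097, adjusted p 0.278) and Mcm6 (0.18, adjusted p 0.0832) lost their calls in the mean, and the means of Cdca3, Cdk2ap1, Cdk2ap2, Ncapd3 and Ncapg were over 1.5 times as far from 0, at 0.43, -0.29, -0.50, 0.44 and 0.59. The part of sex or of any other trait of these replicates in the ratios was not tested.

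**Figure D4:**
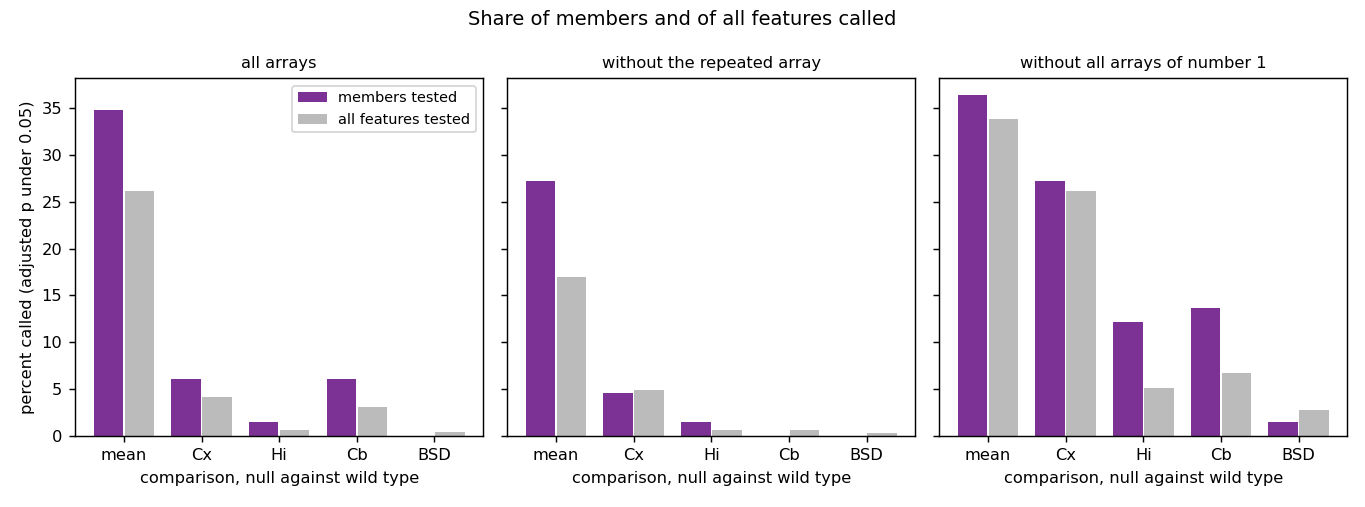
Percent of the 66 tested members (purple bars) and of all features tested (grey bars) called at an adjusted p under 0.05, null against wild type, in the mean of regions and in each region (Cx cortex, Hi hippocampus, Cb cerebellum, BSD brain stem-diencephalon). With all arrays the mean has 34.8% of members beside 26.1% of features; without the repeated array cerebellum has no member called, and without number 1 cortex has 27.3% beside 26.2%.

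Other genes of the same pathways are given beside the background of the mean, 26.1% of all features called, 13.2% higher and 12.9% lower. From a list of 41 DNA replication genes, 23 were tested, 3 rose and 2 fell in the mean, with a median of 0.06. Tk1, thymidine kinase, rose by 0.25 ± 0.07 and Rpa2, of the protein that coats single-stranded DNA, by 0.23 ± 0.07. Pold1, the catalytic subunit of polymerase delta, rose by 0.14 ± 0.05, while its second subunit Pold2 fell by 0.23 ± 0.07 and the topoisomerase Top1 fell by 0.23 ± 0.06. In cortex Fen1, which trims Okazaki fragments, rose by 0.41 ± 0.10 (adjusted p 0.0441).

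Rb, E2F and p53 genes gave 17 tested of 34, with 2 higher, 3 lower and a median of -0.05, beside the same 26.1% of all features called. Lin54, the DNA-binding subunit of the DREAM complex that reads the TTTGAA letters shown above, rose by 0.40 ± 0.08 (adjusted p 0.00492), and Rbl2, another subunit of it, by 0.18 ± 0.05. Gadd45g, Mdm2 and Foxm1 fell by 0.26 ± 0.09, 0.15 ± 0.05 and 0.13 ± 0.04. In cortex Lin54 rose by 0.67 ± 0.17 (adjusted p 0.0454) and Cks2, a small partner of Cdk1, by 0.59 ± 0.14 (adjusted p 0.0451). Mitotic genes and subunits of the anaphase-promoting complex gave 17 tested of 38, with 3 higher and 1 lower and a median of 0.02, also beside 26.1%. Aurkb, a mitotic kinase, rose by 0.47 ± 0.13 (adjusted p 0.0196), and Anapc4 and Anapc1, scaffold subunits of the complex to which Cdc23 belongs, by 0.23 ± 0.05 and 0.17 ± 0.06. Fzr1, which activates that complex after mitosis, fell by 0.23 ± 0.07 (adjusted p 0.024).

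Cell type markers were read beside these genes, because in whole regions fewer cells of a type and less RNA per cell cannot be told apart. Of 6 markers of dividing cells (Mki67, Top2a, Pcna, Birc5, Ccnb1 and Cdk1), 0 had enough values for a test, and the data therefore do not check whether the called genes come from dividing cells. Of 6 neuron markers 2 were tested: Tubb3 fell by 0.66 ± 0.11 in the mean (adjusted p 0.00123) and Nefl lay at -0.05. Of 7 microglia markers 3 were tested, with ratios from 0.38 to 0.58 in cerebellum, where Rad21 and Cdk8 were highest, and from -0.33 to -0.18 in cortex, none called. Vessel and blood markers went opposite ways, Pecam1 at -0.44 and Hbb-b1 at 0.56 in the mean, both called, and Ttr of the choroid plexus was lower in cerebellum at -1.05 (adjusted p 0.0216) and in the mean at -0.31 (adjusted p 0.0422). Its other ratios were 0.68 for hippocampus, -0.70 for cortex and -0.19 for brain stem-diencephalon, none called. Progenitor markers Nes and Vim lay at -0.19 and 0.16, the oligodendrocyte markers between -0.04 and 0.01, and of the astrocyte markers Slc1a3 rose by 0.14 and Aldoc lay at -0.06. Their part in the ratios of the cell cycle genes was not tested.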

How the data were processed

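The authors deposited 1 value per probe and array, a log ratio of the 2 channels read here as log2; their base, channel order and earlier steps remain unstated in the labels and files. The deposited values ran from -5.06 to 5.48, array medians lay between 0.00862 and 0.0609, and 6793 to 13963 of 15245 probes had a value on an array. The files hold no signal, background or depth, so precision is set by how many arrays there are.

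Swapped arrays were multiplied by -1, each array was centred on its median, and symbols were updated by Entrez ID through RefSeq tables (assembly GRCm38.p6, names only). The fit took probes with 3 or more values in each region, 1 or more of them in each orientation, and probes of a gene were averaged. Arrays of 1 region and number were averaged to 13 replicates, which the fit took as independent of each other. Each feature was fitted with 4 region terms and an orientation term, its variance moderated by limma 3.58.1 in R 4.3.3; it was checked on simulated data. Region ratios and their mean were tested against 0, and regions were compared by an F test and 6 pairwise differences, with Benjamini-Hochberg adjustment over 8319 features and a threshold of 0.05.

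Before centring, arrays of opposite orientation in a region correlated across probes at a median of -0.0676, at -0.285 without the channel 1 arrays of number 1 and at 0.122 with them. The members and the gene lists were chosen with earlier results of these data known. Named genes are the members called in any comparison and, in each role, the 3 with the smallest p of the mean; others are given by values and counts, and the untested members by replicate values.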

Additional observations from a re-analysis of the deposited data

How the results depend on the processing

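Over 24 alternatives, 831 results of a single gene and setting were compared with those reported: 647 kept their sign and their side of the threshold, 175 lost the call, 9 gained one and 0 reversed. The count in the mean of regions stayed within 1.5 times of 23 except in 3 of the settings that leave out 1 replicate. It ranged from 9 to 27 over the settings that leave out 1 replicate, with 11.3% and 31% of all features called at these ends. With 1 replicate left out, cortex ranged from 0 to 15, hippocampus from 0 to 1 and cerebellum from 0 to 8. Brain stem-diencephalon and the F test stayed at 0. At the 15 in cortex and the 8 in cerebellum, 20.3% and 5.48% of all features were called. Cortex had 0 calls with arrays scaled to 1 spread, 0 with a variance trend and robust moderation, 2 with complete features and 2 without the orientation term. Hippocampus had 0 with a minimum of 2 arrays a region (0.482% of all features) and 0 with complete features (0.53%). It also had 0 with each probe fitted alone (0.546%) and 0 with the variance trend (0.168%). Cerebellum had 0 with the variance trend (0.337% of all features) and 0 without the repeated array (0.577%). Without the channel 1 arrays of number 1 cortex had 16, hippocampus 5 and cerebellum 13, beside 18.7%, 2.12% and 12.3% of all features. Without all arrays of number 1, a setting chosen after seeing the data, cortex had 18, hippocampus 8, cerebellum 9 and brain stem-diencephalon 1. The shares of all features were 26.2%, 5.14%, 6.7% and 2.71% in the same order. The causes were not tested.

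The labels do not say whether a number pairs samples across regions. Deviations of replicates with the same number in 2 regions correlated between -0.03 and 0.57. Their median was 0.268, against -0.127 for other numbers, and 14 of 18 pairs were above 0.1. Of 12 numbered replicates, 5 correlated best with their own number in every other region. By these medians, replicates of the same number were more alike than others, while the main fit took all 13 replicates as independent. With the number as a random block (consensus correlation 0.24), 18 members were called in the mean, beside 17% of all features. By region it called 9 in cortex beside 8.27%, 1 in hippocampus beside 1.02%, 7 in cerebellum beside 5.95% and 0 in brain stem-diencephalon beside 0.469%. The F test called 0 members, beside 0.12% of all features. The block kept 18 of the 23 calls in the mean; Ccna2 (adjusted p 0.0782), Cdk16 (0.096), Cdk2ap1 (0.0627), Mcm6 (0.0851) and Rad50 (0.0688) were lost.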
